A study of Mus musculus with 11 samples.

Results

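The liver makes hepcidin, the hormone that sets how much iron enters the blood, and it also stores iron in ferritin and exports transferrin and ceruloplasmin. The 10 transcripts described here are *Hamp*, which encodes hepcidin, the iron-regulated SMAD target *Smad6*, the receptors and sensors *Tfr2*, *Hfe* and *Tfrc*, the iron carrier *Trf*, the exporter *Slc40a1* (ferroportin), the ferroxidase *Cp* (ceruloplasmin), and the ferritin chains *Fth1* and *Ftl1*. They were chosen by gene symbol, and all 10 were among the 13669 genes of the count table and the 13334 genes tested.

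Liver RNA came from 11 male wild-type C57BL/6J mice on regular chow. An adeno-associated virus of serotype 8 was injected into the tail vein, and the liver-specific LP1 promoter drove its insert. In 6 animals the insert was a tough decoy (AAV-TuD), an RNA built to sequester *miR-541* and *miR-379*, and 5 received a negative control sequence (AAV-NC). Both groups thus carried the virus, and the livers were taken after a short fast. In liver, the study reported that the decoy also lowered *lncMGC* and *Mirg*, which host the miRNA cluster. It reported lower *miR-382*, *miR-134* and *miR-409* of that cluster too. Neither the animals' exact age nor the time since injection was given for these livers. Samples are named by group and replicate number (AAV-NC 1, 2, 6, 7 and 8, and AAV-TuD 3, 4, 5, 9, 10 and 11). A number occurred in only 1 group and therefore paired no samples. No sequencing batch is named, and the labels say only that the libraries are separate samples, so p values cover the spread between these libraries.

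In general, iron-loaded transferrin is sensed on hepatocytes by TFR2 and HFE, while sinusoidal endothelial cells supply BMP ligands. BMP receptors act through SMAD proteins on the *Hamp* promoter, and interleukin-6 acts on it through STAT3. Hepcidin then removes ferroportin from cell surfaces, so that iron stays inside hepatocytes and macrophages. A separate control works on RNA. When a cell lacks iron, the iron regulatory proteins bind hairpins called iron-responsive elements, which blocks translation of ferritin and ferroportin mRNA and stabilizes transferrin receptor mRNA. Protein and iron were not analysed here, and RNA levels do not show the control of translation.

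Sequences that bear on these routes come first. The decoy is directed at the mature miRNAs below (RefSeq, GRCm38.p6, chromosome 12, plus strand, 109709065 to 109709085 and 109742422 to 109742446), in which capitals mark the seed, bases 2 to 8.
miR-379-5p: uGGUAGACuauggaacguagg
miR-541-5p: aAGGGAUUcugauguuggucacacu
The 7 bases that pair with the seed of *miR-379-5p*, GTCTACC, occurred in 5.72% of the 10935 longest annotated 3′ UTRs of tested genes (GENCODE M21), and those for *miR-541-5p*, AATCCCT, in 9.56%. Neither stood in the 3′ UTR of any of the 10 iron genes, which says only that these letters are not in those windows. Of 3 other cluster miRNAs assayed in the study, *miR-382-5p* (ACAACTT, in 11.8% of 3′ UTRs) had a match in *Cp* and *miR-134-5p* (CAGTCAC, 13.5%) in *Smad6*, and *miR-409-5p* (GGTAACC, 4.63%) had none in the iron genes. These matches are shown with the pairing bases in capitals.
Cp, miR-382-5p: ctattacacgtACAACTTtatttgcttca
Smad6, miR-134-5p: aaaactaatacCAGTCACtcttgataata

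Iron-responsive elements were searched as a C, 5 bases, the loop CAGTGN and 5 bases that pair with the first 5 (G-U pairs allowed). *Fth1* and *Ftl1*, whose products form the ferritin shell, and *Slc40a1* each had 1 in the 5′ UTR, where only 18 of 10916 tested genes (0.165%) had one. *Tfrc*, the receptor that brings transferrin into cells, had 4 matches in its 3′ UTR of 2461 bases. Elements that depart from this pattern were not searched. Of the 10935 genes with an annotated 3′ UTR, 86 (0.786%) had at least 1 and only *Tfrc* had 2 or more. The loops are in capitals, with up to 30 bases of each site.
Fth1 5′ UTR: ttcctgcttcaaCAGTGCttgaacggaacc
Ftl1 5′ UTR: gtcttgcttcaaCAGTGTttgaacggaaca
Slc40a1 5′ UTR: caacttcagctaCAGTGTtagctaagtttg
Tfrc 3′ UTR, element 1: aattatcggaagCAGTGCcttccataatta
Tfrc 3′ UTR, element 2: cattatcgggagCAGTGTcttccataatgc
Tfrc 3′ UTR, element 3: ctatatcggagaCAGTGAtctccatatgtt
Tfrc 3′ UTR, element 4: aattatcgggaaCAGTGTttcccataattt

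The authors deposited counts of reads at the 3′ end of transcripts, with totals from 8148531 to 12043959 reads per liver. Levels are given as CPM, the reads of a gene as a share of the library, after TMM scaling, which corrects for uneven library composition. Reads from 3′ ends do not grow with transcript length, so CPM can be compared between genes. Reads on major urinary protein (*Mup*) genes took 38.6% of AAV-NC 7, 30.9% of AAV-TuD 3 and 28.4% of AAV-TuD 5, and between 8.09% and 18.7% of the others. Results are therefore also given without these 3 livers. Hepatocyte markers such as *Alb* were abundant throughout. *Alb* had 17185 to 23301 CPM in AAV-NC and 25671 to 33283 CPM in AAV-TuD livers, without overlap. Its log2 fold change of 0.41 did not pass after adjustment (edgeR quasi-likelihood test, adjusted p = 0.0805). Of the 8 hepatocyte markers, 2 had a log2 fold change above 0, and the median was -0.19. Of the marker lists, 7 of 10 Kupffer cell, 6 of 8 stellate cell and 4 of 4 cholangiocyte genes tested were higher with AAV-TuD. For sinusoidal endothelium 0 of 8 were higher, for erythroid cells 0 of 5 and for hepatocytes 0 of 8, with 2 lower (*Apob* and *Hnf4a*). These are calls at an edgeR adjusted p under 0.05, where 7.24% of all tested genes were higher and 4.33% lower. The most abundant marker of each list averaged 24.7 CPM in AAV-NC and 48.6 CPM in AAV-TuD livers for *Csf1r* (Kupffer cells), 150.1 and 259 CPM for *Dcn* (stellate cells), 22.9 and 40.1 CPM for *Sox9* (cholangiocytes), 53.3 and 52.3 CPM for *Kdr* (sinusoidal endothelium) and 962 and 1533 CPM for *Hba-a1* (erythroid cells). In bulk tissue, a change in the number of cells of a type and a change in RNA per cell cannot be told apart.

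Across the 10 iron genes, *Cp* rose 1.37-fold with AAV-TuD, while *Tfr2* fell to 0.817-fold and *Fth1* to 0.814-fold of the control level. *Hamp* itself, *Trf*, *Tfrc*, *Slc40a1*, *Ftl1*, *Hfe* and *Smad6* did not pass the test. Thus 3 of 10 were called by edgeR's quasi-likelihood test at a Benjamini-Hochberg adjusted p under 0.05, where 11.6% of all tested genes were. Of these, 1 was higher (7.24% of all genes) and 2 were lower (4.33%). The values of AAV-NC and AAV-TuD livers did not overlap for 2 genes, *Cp* and *Tfr2*, as for 7.39% of all genes. The median log2 fold change of the 10 genes was -0.08 and that of all genes -0.00. With so few genes these shares are a description and set the iron genes apart from no others.

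**Figure D1:**
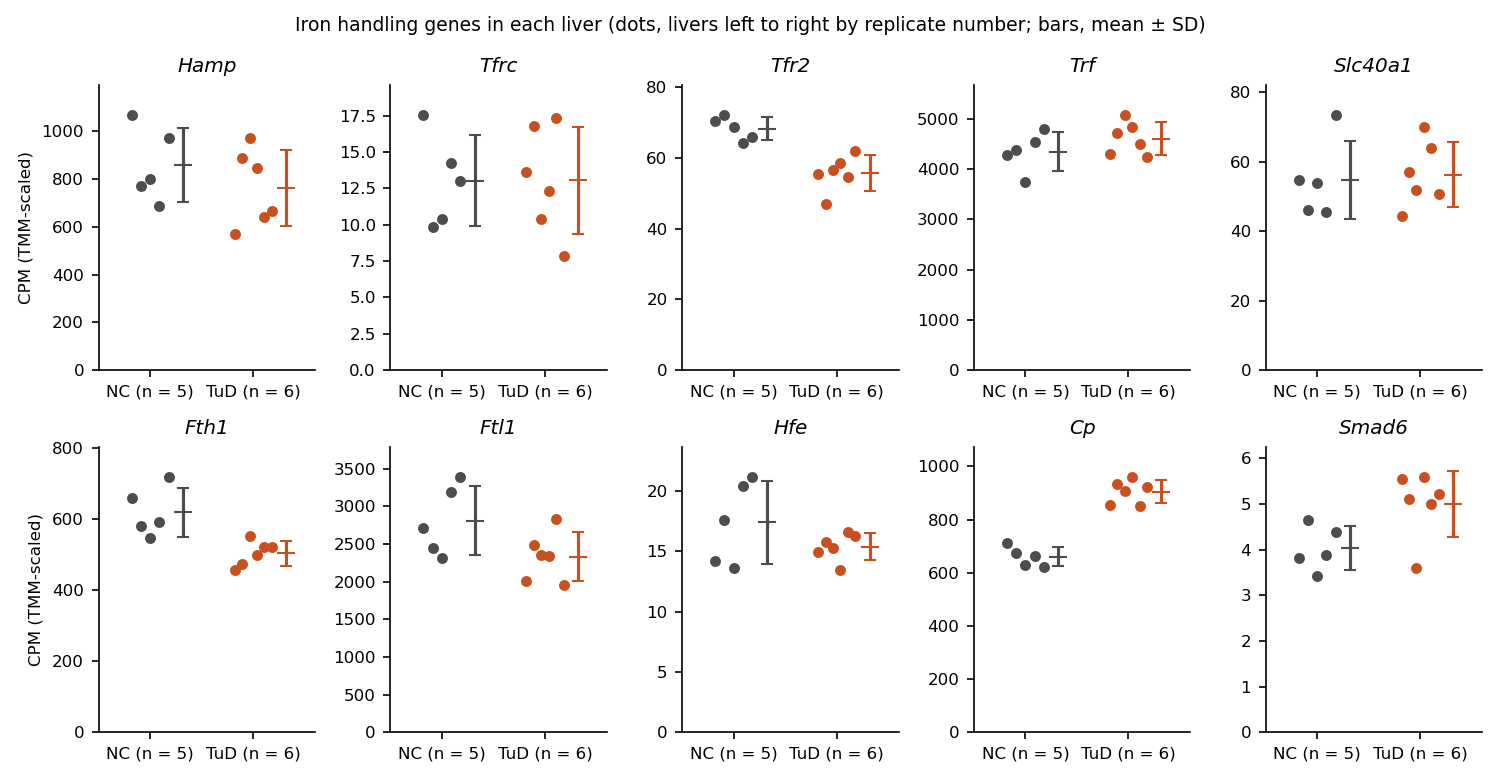
CPM (linear axis from 0, TMM-scaled) of the 10 iron genes in each liver, with AAV-NC in grey (5 livers) and AAV-TuD in orange (6 livers), and bars for the mean ± SD. All *Cp* dots of AAV-TuD (852 to 959 CPM) lie above those of AAV-NC (623 to 711 CPM), those of *Tfr2* lie below, and the *Hamp* dots overlap.

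By level, the iron genes covered a wide range in the control livers. *Trf* led at 4342 ± 387 CPM (mean ± SD, n = 5), followed by *Ftl1* at 2812 ± 462 CPM, *Hamp* at 859 ± 156 CPM, *Cp* at 660.4 ± 36.0 CPM and *Fth1* at 619 ± 68.9 CPM. *Tfr2* at 68.3 ± 3.26 CPM and *Slc40a1* at 54.7 ± 11.2 CPM formed a middle tier. *Hfe* at 17.4 ± 3.45 CPM, *Tfrc* at 13.02 ± 3.13 CPM and *Smad6* at 4.03 ± 0.485 CPM were lowest. The place of *Ftl1* below *Trf* is uncertain, because a near-identical copy, *Ftl1-ps1*, averaged 2939 CPM in the same livers. The ranges of *Hamp* and *Cp*, *Cp* and *Fth1*, *Tfr2* and *Slc40a1*, and *Hfe* and *Tfrc* overlapped between neighbors in this order. In the AAV-TuD livers, *Cp* (852 to 959 CPM) and *Fth1* (458 to 552 CPM) no longer overlapped. The coefficient of variation among AAV-NC livers was 4.77% for *Tfr2* and 5.45% for *Cp*, against 18.2% for *Hamp* and 24.04% for *Tfrc*, so the same difference is harder to detect in the latter pair.

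Hepcidin is the output of the sensing pathway. *Hamp* lies on chromosome 7 of GRCm38 (chr7:30942368-30944032, minus strand), beside its paralog *Hamp2* (chr7:30922372-30924681, minus strand). It reached 1067, 771, 799, 686 and 971 CPM in AAV-NC livers 1, 2, 6, 7 and 8. The AAV-TuD livers had a lowest value of 569.5, a median of 757 and a highest of 969 CPM. Livers of both groups were spread over much the same range, with 3 of 6 AAV-TuD livers below the lowest control. The log2 fold change was -0.17 (SE 0.15, 95% interval -0.48 to 0.14, edgeR adjusted p = 0.506), an interval that holds both decreases and small increases. Without the 3 livers rich in *Mup* reads it was -0.24 (edgeR adjusted p = 0.278), and with single livers left out it ran from -0.25 to -0.08, the latter without AAV-NC 1 (edgeR adjusted p = 0.804). With cyclic loess it was -0.01 (limma-voom adjusted p = 0.973) and with library size alone 0.05 (edgeR adjusted p = 0.909).

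*Hamp2* encodes another hepcidin, whose part in iron balance is less clear. Its level was 112, 44.4, 106, 19.4 and 26.2 CPM in the AAV-NC livers in the same order. With AAV-TuD it was lowest at 49.4, with a median of 143 and a highest value of 193 CPM. Thus 4 of 6 AAV-TuD livers exceeded every control, while AAV-TuD 3 and AAV-TuD 5 lay within the control range. The log2 fold change of 1.09 (SE 0.42, 95% interval 0.20 to 1.98) did not pass after adjustment (edgeR adjusted p = 0.104). Without the 3 *Mup*-rich livers it was 1.17 and passed (edgeR adjusted p = 0.0471), and with library size alone it was 1.33 and also passed (adjusted p = 0.0114). The last 300 bases of *Hamp* are 90.9% identical to *Hamp2*, so reads could be shared. The read ratio of *Hamp* to *Hamp2* nevertheless varied from 7.52 to 37.1 in AAV-NC and from 3.32 to 19.6 in AAV-TuD livers, so the counts of *Hamp2* were no fixed share of those of *Hamp*.

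**Figure D2:**
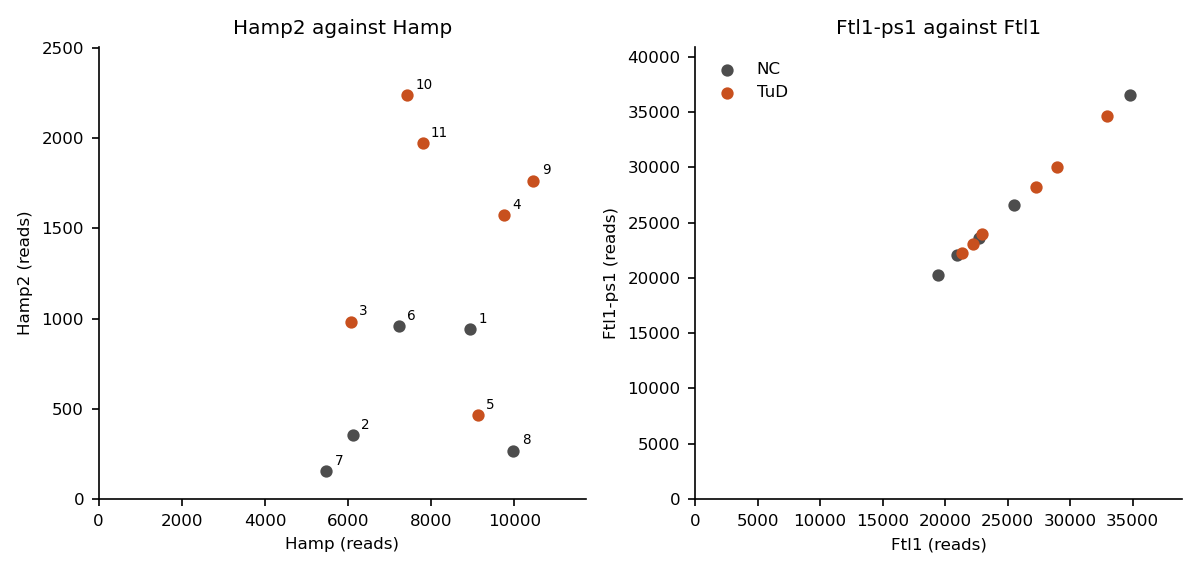
Reads per liver (linear axes from 0) of *Hamp2* against *Hamp* on the left, with replicate numbers, and of *Ftl1-ps1* against *Ftl1* on the right, with AAV-NC in grey and AAV-TuD in orange. *Hamp2* varies widely at similar *Hamp* counts, whereas *Ftl1-ps1* follows *Ftl1* at a ratio of 1.03 to 1.05 in all 11 livers.

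*Smad6* encodes an inhibitory SMAD that is induced together with *Hamp* by BMP signals. Controls 1, 2, 6, 7 and 8 had 3.82, 4.66, 3.43, 3.88 and 4.38 CPM. AAV-TuD livers had a lowest value of 3.61, a median of 5.16 and a highest of 5.59 CPM. All except AAV-TuD 5 lay above the highest control. The log2 fold change was 0.32 (SE 0.15, 95% interval -0.00 to 0.64) and did not pass (edgeR adjusted p = 0.197), and at 31 to 69 reads per liver counting error was sizable. Within a liver, the log2 ratio of *Hamp* to *Smad6* counts was 7.70 ± 0.31 (SD, n = 5) in AAV-NC and 7.23 ± 0.48 (n = 6) in AAV-TuD. This difference of -0.48 had an exact two-sided permutation p of 0.0866 over 462 assignments of the livers (0.260 adjusted over 3 ratios). Leaving out AAV-TuD 5 gave -0.64 with an adjusted exact permutation p of 0.0476. The call of the ratio thus depended on that liver, while the difference ran from -0.64 to -0.37 with single livers left out.

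Other genes of the BMP-SMAD route came from lists written with general knowledge of iron biology. Of 13 tested inputs (ligands, receptors, co-receptors and SMADs), *Smad4*, the shared partner of the signaling SMADs, fell (log2 fold change -0.27, edgeR adjusted p = 0.0433) and none rose. This call was lost whichever liver was left out, with edgeR adjusted p values of 0.0550 to 0.110. *Hjv*, the BMP co-receptor hemojuvelin, differed by 0.16 (adjusted p = 0.342), and *Tmprss6*, the protease that cleaves it, by -0.20 (adjusted p = 0.0744, both in edgeR). *Bmp6*, a main iron-regulated ligand, did not reach the tested set, and *Bmp2* differed by -0.03 (edgeR adjusted p = 0.889). Over all tested genes, 11.6% passed in either direction. Among 7 BMP-SMAD target genes, only *Id4*, which encodes an inhibitor of DNA binding, passed. It had 1.79, 1.89, 2.10, 0.876 and 2.43 CPM in AAV-NC livers 1, 2, 6, 7 and 8, and 2.46 to 5.22 CPM with AAV-TuD. The log2 fold change was 1.07 (SE 0.24, edgeR adjusted p = 0.0106). At a mean of 31 reads per liver, counting error was sizable for *Id4* too. *Id1*, a common readout of BMP signaling, differed by 0.68 (edgeR adjusted p = 0.0551) and *Smad7* by 0.11 (adjusted p = 0.717). *Id1* passed in DESeq2 (adjusted p = 0.0274) and without the *Mup*-rich livers (edgeR adjusted p = 0.0305), so its call depended on the method.

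Whether *Hamp* moved with these targets from liver to liver was examined on log2 CPM centred within each group, so that the group difference played no part. Over the 11 livers, Pearson's r with *Id1* was 0.41 and Spearman's rho 0.41, each with an adjusted permutation p of at least 0.601. The r was -0.38 with *Smad6* (rho -0.36), -0.24 with *Smad7* (rho -0.17), -0.24 with *Atoh8* (rho -0.29) and 0.14 with *Tfrc* (rho 0.06). None of the 5 relations passed, with adjusted permutation p values from 0.601 to 0.699 for r and from 0.638 to 0.868 for rho. Without AAV-TuD 5 and AAV-NC 1, the livers farthest from the median of *Hamp*, r became 0.57 with *Id1*, 0.13 with *Smad6*, -0.28 with *Smad7*, -0.51 with *Atoh8* and 0.11 with *Tfrc*. The negative r of *Hamp* and *Smad6* therefore rested on those 2 livers. The genes whose centred values followed *Hamp* most closely over the 11 livers were *Abcb9* (r = 0.90), *Maob* (0.89), *Ikzf1* (0.88), *Nostrin* (0.87) and *Map2k3* (0.87). They are the highest of 13334 correlations and carry no test.

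Interleukin-6 and STAT3 form the inflammatory input to *Hamp*. In the list of 16 genes, *Saa1*, *Saa2* and *Lcn2*, which encode acute phase proteins, rose and none fell. Over all tested genes, 7.24% rose and 4.33% fell. *Saa1* was at 15.2, 13.5, 13.9, 25.8 and 34.7 CPM in AAV-NC livers 1, 2, 6, 7 and 8. Its AAV-TuD values had a lowest of 35.1, a median of 73.3 and a highest of 94.8 CPM. The groups only just failed to overlap, at AAV-NC 8 and AAV-TuD 11, and the log2 fold change was 1.77 (SE 0.27, edgeR adjusted p = 0.00106). Those of *Saa2* and *Lcn2* were 2.02 (adjusted p = 0.00499) and 2.28 (adjusted p = 0.0102, both in edgeR), the latter from a level under 1 CPM in all controls. The call of *Lcn2* was lost with cyclic loess (limma-voom adjusted p = 0.0526). *Lcn2* encodes lipocalin-2, which binds iron-carrying siderophores. The signaling genes of the list did not pass, with edgeR adjusted p values from 0.119 for *Il6st* (log2 fold change -0.21) to 0.753 for *Il6ra* (0.16). *Jak1* was at -0.12, *Jak2* at 0.17, *Stat3* at -0.12 and *Socs3* at -0.27. The fibrinogen genes and *Hp* did not pass either. Other acute phase genes of the list that did not pass were *Saa3* (0.26, edgeR adjusted p = 0.623), *Orm1* (0.12, adjusted p = 0.635) and *Orm2* (0.42, adjusted p = 0.0911). In these same livers *Hamp* did not pass the test.

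Of the iron sensors, *Tfr2* fell. This receptor of hepatocytes and erythroid precursors lies on chromosome 5 (chr5:137569840-137587481, plus strand, GRCm38). Its level was 70.4, 72.1, 68.8, 64.2 and 65.8 CPM in AAV-NC livers 1, 2, 6, 7 and 8. AAV-TuD livers had a lowest value of 47.0, a median of 56.1 and a highest of 62.1 CPM. Each of them was below all controls. The level was 0.817-fold that of the controls (log2 fold change -0.29, SE 0.07, 95% interval -0.45 to -0.13, edgeR adjusted p = 0.0193). Leaving out single livers gave -0.32 to -0.24, and the call was lost without AAV-NC 2 (edgeR adjusted p = 0.0515). Without the *Mup*-rich livers it was -0.31 (adjusted p = 0.0495).

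The scaling matters for a difference of this size. With library size alone the median of all genes was 0.23, and *Tfr2* was at -0.07 (edgeR adjusted p = 0.830), or -0.30 relative to that median. A cyclic loess normalization, which also removes trends with abundance, gave -0.22 (limma-voom adjusted p = 0.0743). Genes in the same decile of abundance as *Tfr2* lay at a median of -0.07 on the log2 scale, with 8.18% lower.

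*Hfe*, which encodes the MHC class I-like protein that binds transferrin receptors and is mutated in hereditary hemochromatosis, did not pass. Controls ranged from 13.6 to 21.1 CPM and AAV-TuD livers from 13.4 to 16.6 CPM. The AAV-TuD values lay within or just under the lower part of the control range (log2 fold change -0.18, 95% interval -0.43 to 0.08, edgeR adjusted p = 0.372). *Tfrc* is the receptor by which most cells take up transferrin and the RNA with the 4 matches shown above. It had 17.5, 9.82, 10.4, 14.3 and 13.04 CPM in AAV-NC livers 1, 2, 6, 7 and 8, and a lowest value of 7.87, a median of 12.96 and a highest of 17.3 CPM with AAV-TuD. The group means were alike (log2 fold change 0.01, SE 0.20, edgeR adjusted p = 0.991). Its 95% interval of -0.41 to 0.42 does not exclude a change of the size of that of *Tfr2*. The log2 ratio of *Tfrc* to *Tfr2* counts was 0.28 higher with AAV-TuD (exact permutation p = 0.351, adjusted 0.526).

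Transferrin carries iron in plasma, and *Trf* was the most abundant iron gene. It ranged from 3746 to 4793 CPM in AAV-NC and from 4242 to 5069.8 CPM in AAV-TuD livers, so the groups overlapped. The log2 fold change was 0.08 (SE 0.11, 95% interval -0.14 to 0.31, edgeR adjusted p = 0.671). Only with cyclic loess did *Trf* pass, at 0.31 (limma-voom adjusted p = 0.0154).

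Ceruloplasmin is the copper enzyme of plasma that oxidizes iron as it leaves cells, so that transferrin can bind it. *Cp* lies on chromosome 3 (chr3:19957054-20009145, plus strand, GRCm38). It had 711, 675, 629.9, 662 and 623 CPM in AAV-NC livers 1, 2, 6, 7 and 8. The lowest AAV-TuD liver had 852, the median was 914 and the highest 959 CPM. All AAV-TuD livers stood clear of the highest control. *Cp* was 1.37-fold higher (log2 fold change 0.45, SE 0.07, 95% interval 0.30 to 0.61, edgeR adjusted p = 0.00149). It passed with every liver left out (0.44 to 0.48) and under every scaling, at 0.69 with library size alone (0.46 relative to the median of all genes), 0.62 with cyclic loess and 0.48 without the *Mup*-rich livers. In edgeR it was also the only iron gene that passed at an adjusted p under 0.01, whereas in DESeq2 *Tfr2* (adjusted p = 0.00464) and *Fth1* (adjusted p = 0.00471) did so too. Of 7 listed genes of copper handling, the copper chaperone *Atox1* rose by 0.32 (edgeR adjusted p = 0.0117), where 7.24% of all tested genes rose. The ATPase *Atp7b*, which loads copper into ceruloplasmin, differed by -0.04 (edgeR adjusted p = 0.916).

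Ferroportin, encoded by *Slc40a1*, is the exporter that hepcidin acts on, and is prominent in Kupffer cells. Its level was 54.7, 46.2, 53.9, 45.6 and 73.4 CPM in AAV-NC livers 1, 2, 6, 7 and 8. AAV-TuD livers had a lowest value of 44.2, a median of 54.3 and a highest of 69.95 CPM. The groups covered the same range (log2 fold change 0.04, SE 0.13, 95% interval -0.24 to 0.32, edgeR adjusted p = 0.900). In the same livers the summed level of the 10 Kupffer cell markers was 126 to 186 CPM in AAV-NC and 141 to 399 CPM in AAV-TuD, with a median log2 fold change of 0.87. The part of such cells in the level of *Slc40a1* was not tested.

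Ferritin stores iron in a shell of heavy and light chains. *Fth1*, the heavy chain with ferroxidase activity (chr19:9980598-9985098, plus strand, GRCm38), had 660.1, 581, 546, 592 and 718 CPM in AAV-NC livers 1, 2, 6, 7 and 8. With AAV-TuD its lowest value was 458, its median 509.6 and its highest 552 CPM. AAV-TuD 5 overlapped with AAV-NC 6, and the other AAV-TuD livers lay below all controls. *Fth1* fell to 0.814-fold (log2 fold change -0.30, SE 0.08, 95% interval -0.48 to -0.12, edgeR adjusted p = 0.0334). This call was less stable than that of *Cp*. It was lost in 7 of 11 fits with 1 liver left out (AAV-NC 1, AAV-NC 8, or AAV-TuD 3, 4, 9, 10 or 11), where the value stayed between -0.34 and -0.24 and the adjusted p reached 0.0833. It was also lost without the *Mup*-rich livers (-0.31, edgeR adjusted p = 0.0609), with library size alone (-0.07, or -0.30 relative to the median of all genes) and with cyclic loess (-0.14, limma-voom adjusted p = 0.270). In its decile of abundance, the highest, the median log2 fold change was -0.13 and 18.6% of genes were lower.

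*Ftl1*, the light chain (chr7:45457944-45459884, minus strand, GRCm38), had 2714, 2450.3, 2320.3, 3189 and 3385 CPM in AAV-NC livers 1, 2, 6, 7 and 8. AAV-TuD livers ranged from 1962 to 2838 CPM with a median of 2352 CPM. The groups overlapped, with 2 AAV-TuD livers below the lowest control. The log2 fold change was -0.27 (SE 0.13, 95% interval -0.54 to 0.00, edgeR adjusted p = 0.196). It was -0.01 with library size alone (edgeR adjusted p = 0.978) and -0.06 with cyclic loess (limma-voom adjusted p = 0.804). The log2 ratio of *Ftl1* to *Fth1* counts differed by 0.03 between the groups (exact permutation p = 0.792), so no unequal difference of the chains was detectable.

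Ferritin counts carry a caveat of sequence. The last 300 bases of *Ftl1* are 99.3% identical to *Ftl1-ps1*, and 4 tested genes were at least 90% identical to them over at least 250 bases. The counts of *Ftl1-ps1* were 1.03 to 1.05 times those of *Ftl1* in every liver, so they cannot be taken as separate measurements, and the level of *Ftl1* is uncertain. *Ftl2-ps*, at 20 to 38 reads per liver, differed by -0.49 (edgeR adjusted p = 0.0573). *Fth1-ps*, 95.6% identical to *Fth1* over 274 bases, had only 8 to 13 reads per liver against at least 4612 for *Fth1*.

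**Figure D3:**
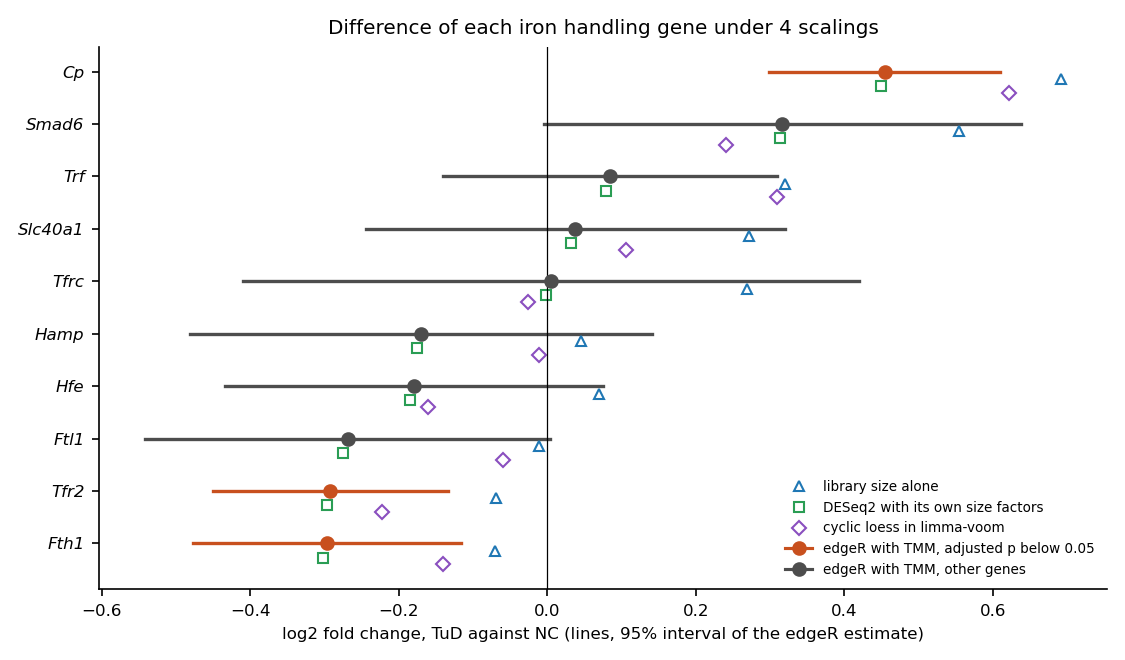
Log2 fold change (AAV-TuD against AAV-NC) of each iron gene from edgeR with TMM (filled dots with 95% intervals, orange where the adjusted p is below 0.05) and from 3 other scalings (open symbols). *Cp* lies between 0.45 and 0.69 in all 4, while *Fth1* moves from -0.30 to -0.07 and *Tfr2* from -0.29 to -0.07 with library size alone.

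Among the 18 genes with a match to the searched iron-responsive element pattern in the 5′ UTR, the median log2 fold change was 0.00. Only *Fth1* passed, 1 of 18 (5.56%). Of the 86 genes with one in the 3′ UTR, 6 passed (6.98%), 4 higher and 2 lower. Both shares were under the 11.6% of all tested genes. Binding of the iron regulatory proteins to these matches was not tested. None of the 7 genes of iron sensing and ferritin turnover passed, among them *Aco1* (-0.13, edgeR adjusted p = 0.340) and *Ireb2* (-0.13, adjusted p = 0.311), which encode the iron regulatory proteins. The median of the 7 was -0.13.

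Over all 9 lists of iron pathway genes, 97 of 103 were tested, 6 were higher and 4 lower. Of the higher genes, *Saa1*, *Saa2* and *Lcn2* came from the interleukin-6 and STAT3 list. The 10.3% called compare with 11.6% over all genes, and the median was -0.00 in both. Membrane transport held the clearest fall. *Slc39a14*, or ZIP14, the transporter by which hepatocytes take up iron that is not bound to transferrin, had 36.6, 32.5, 41.4, 33.9 and 30.6 CPM in AAV-NC livers 1, 2, 6, 7 and 8. With AAV-TuD its lowest value was 18.9, its median 22.8 and its highest 30.1 CPM. No AAV-TuD liver reached a control (log2 fold change -0.60, SE 0.11, edgeR adjusted p = 0.00384), and the call was kept with each liver left out. With library size alone it was at -0.39 and did not pass (edgeR adjusted p = 0.143). *Steap2*, a ferrireductase, rose by 1.04 (edgeR adjusted p = 0.0342) from 0.751 to 5.09 CPM in controls, but 6 of 11 livers left out ended this call.

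In heme metabolism, *Fech*, which inserts iron into heme, and *Blvrb*, a biliverdin reductase, fell by 0.20 (edgeR adjusted p = 0.0348) and 0.29 (adjusted p = 0.0433) on the log2 scale. Each call was lost in most fits with 1 liver left out, 8 of 11 for *Fech* and 9 of 11 for *Blvrb*. *Hmox1*, the inducible heme oxygenase, differed by 0.35 (edgeR adjusted p = 0.247) and *Alas1*, the first enzyme of heme synthesis, by -0.72 (adjusted p = 0.323), the latter with controls from 65.5 to 407 CPM. Summed erythroid markers, mostly globin RNA, were at 1915 to 2754 CPM in AAV-NC and 2517 to 7003 CPM in AAV-TuD livers. The top of the latter range was AAV-TuD 5, with *Hba-a1* at 2787 CPM against 1792 CPM in AAV-TuD 10, the next. *Alas2*, the tested erythroid marker that is not a globin, differed by -0.59 (edgeR adjusted p = 0.207). The part of erythroid RNA in the heme genes was not tested. None of the 16 genes of iron-sulfur cluster assembly passed, with a median of -0.03.

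**Figure D4:**
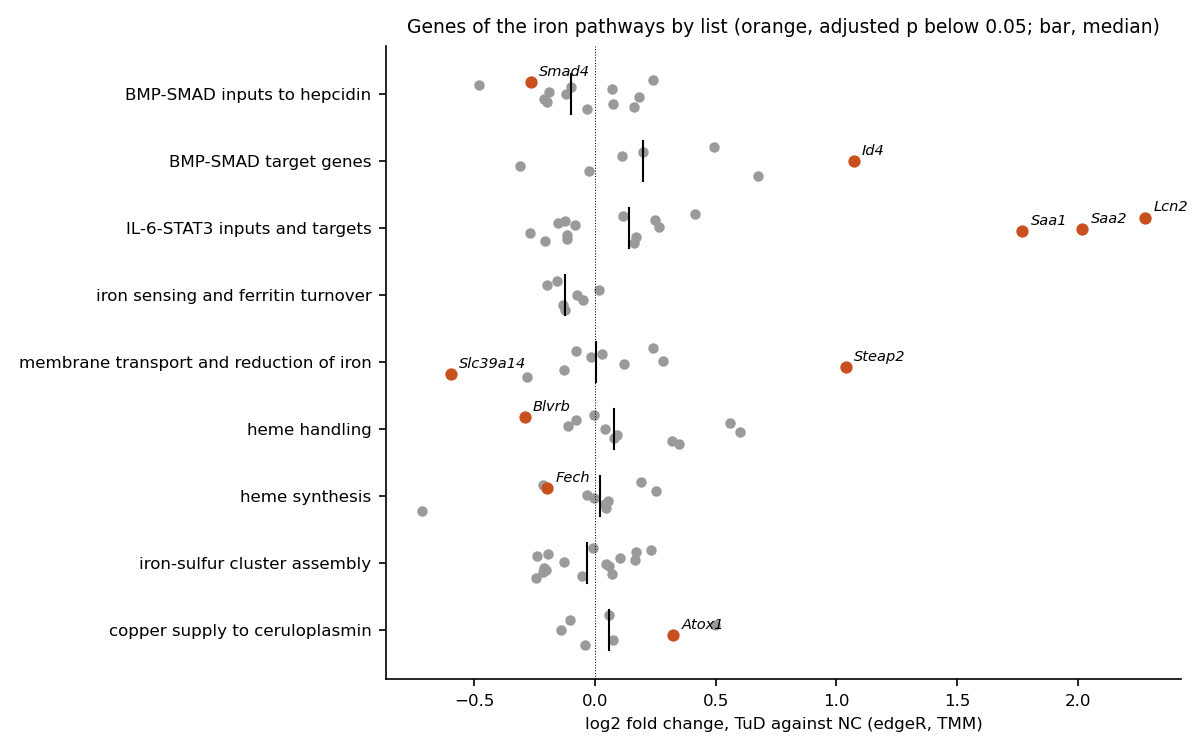
Log2 fold change (AAV-TuD against AAV-NC, edgeR with TMM) of the 97 tested genes in 9 iron pathway lists, 1 dot a gene, with genes of an adjusted p below 0.05 in orange and named, and bars for list medians. The 6 higher genes reach 2.28 (*Lcn2*) and the 4 lower genes -0.60 (*Slc39a14*), and 87 genes lie in grey.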

How the data were processed

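Liver RNA of 5 AAV-NC and 6 AAV-TuD mice was sequenced from 500 ng with a 3′ end kit (QuantSeq). The authors trimmed with BBDuk, mapped to GRCm38 with STAR 2.5.3a (version per the submitters' processing notes) and counted with Rsubread. The deposited values are raw counts per gene. The annotation, the strand setting and the treatment of multi-mapping reads are not given in the sources used here. Totals of 8148531 to 12043959 reads limit precision for genes near 1 CPM.

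Genes that exceeded 10 reads in 5 or more livers were compared with edgeR 4.0.16 (quasi-likelihood, TMM, R 4.3.3), adjusted over 13334 genes by the Benjamini-Hochberg method at 0.05, whereas the study used DESeq2 1.38.3. Ratios (pseudocount 0.5) were tested by exact permutation and relations with 100000 permutations, on log2 CPM with a prior count of 2. DESeq2 1.42.0, limma 3.58.1 and other scalings, filters and left-out livers were alternatives. Cyclic loess and the joint removal of the 3 *Mup*-rich livers were chosen once the data were known. Scripts were tested on simulated data. Replicates were compared by chi-square, and no pair agreed within sampling noise. Sequences came from RefSeq (miRNAs) and GENCODE M21, promoter sequences are not reported here, and similar transcripts from blastn 2.17.0.

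The members and lists were chosen with earlier results of these data known. Named genes are the 10 members, *Hamp2*, *Hjv*, *Bmp6*, *Tmprss6*, *Id1*, *Smad7*, *Hmox1*, *Aco1* and *Ireb2*, the called genes of each list (at most 4 per direction), the 5 genes most correlated with *Hamp*, the most abundant and the called markers, and copies of members. *Bmp2*, *Il6ra*, *Il6st*, *Jak1*, *Jak2*, *Stat3*, *Socs3*, *Hp*, *Saa3*, *Orm1*, *Orm2*, *Alas1*, *Alas2*, *Atp7b* and *Atoh8* are also named for their role in a list.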

Additional observations from a re-analysis of the deposited data

Results flagged for a closer look

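A liver was singled out where its gap to the nearest other liver of the group, as a share of the group's whole range, passed Dixon's 95% critical value. Of 64 groups examined, 5 did so (7.81%), and chance gives about 1 in 20, or 3.2 groups. *Smad6* in AAV-TuD 5 lay far below the other AAV-TuD livers, at 3.61 CPM against 5.002 to 5.59 CPM (gap 0.704 of the range). *Saa2* in AAV-NC 8 stood above the other controls, at 16.4 CPM against 3.10 to 5.97 CPM (0.785). *Smad4* was highest in AAV-NC 8, at 18.6 CPM with the next at 16.6 CPM (0.797), and lowest in AAV-TuD 9, at 12.9 CPM with the next at 14.1 CPM (0.751). The share of reads on *Mup* genes was 38.6% in AAV-NC 7, with the next control at 18.7% (0.804).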

How the results depend on the processing

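The 3 calls among the 10 iron genes (*Cp*, *Tfr2* and *Fth1*) were kept with DESeq2, its size factors, upper-quartile factors, limma-voom with quality weights, both other filters and the removal of *Mup* genes. There were 2 calls with cyclic loess (*Cp* and *Trf*) and without the 3 *Mup*-rich livers (*Cp* and *Tfr2*), 2 or 3 with single livers left out, and 1 (*Cp*) with library size alone and in edgeR at an adjusted p under 0.01. Over all genes, 555 were called at 0.01 and 1012 to 1829 with single livers left out, against 1543. Of the iron pathway genes, 3 were called at 0.01 and 6 to 10 with single livers left out, against 10. With library size alone, which moves the median of all genes to 0.23 and makes 95.1% of calls higher against 62.6%, log2 fold changes became positive for *Hamp* (0.0456), *Hfe* (0.0694), *Tmprss6* (0.0284), *Aco1* (0.10), *Ireb2* (0.10) and *Fech* (0.0316). There r with *Hamp* became 0.46 for *Smad6*, 0.42 for *Smad7* and 0.0105 for *Atoh8*. *Tfrc*, near 0, was at -0.00053 with DESeq2's size factors, -0.0013 in DESeq2, -0.0502 in limma-voom with quality weights, -0.0261 with cyclic loess and -0.0897 to 0.134 with single livers left out. Leaving out single livers gave -0.0307 to 0.169 for *Slc40a1*, -0.0203 to 0.0916 for the log2 ratio of *Ftl1* to *Fth1*, -0.64 to -0.37 for that of *Hamp* to *Smad6*, and -0.0741 to 0.309 for r of *Hamp* and *Tfrc*. The cause was not tested.

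No paired analysis was possible because the groups share no replicate number. Depth limits *Smad6*, *Hfe* and *Tfrc*, at 31 to 217 reads per liver, and *Id4*, at a mean of 31. The number of livers, 11, limits all genes with wide spread, such as *Hamp2*. Bulk RNA cannot assign a transcript to a cell type, and the counts of *Ftl1* could not be separated from those of *Ftl1-ps1*.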
